A study of Mus musculus with 6 samples.

Results

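Cold-inducible RNA-binding proteins and heat shock chaperones were examined as a set of 10 genes among the 13192 tested in mouse cortex. The genes were chosen by name, and Rbm3 and Cirbp were selected on their higher values in the knockout, so the folds of the set in this comparison describe it and are not a test. All 10 were found in the authors' deposited table, each with 1 row. The set holds the RNA-binding protein genes Rbm3 and Cirbp, the chaperone genes Hspa1a, Hspa1b, Hspa8, Hsp90aa1, Hspa5, Hsph1 and Dnajb1, and the transcription factor gene Hsf1.

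RNA was collected from cortex at postnatal day 25 by precipitating HA-tagged ribosomes with an antibody to HA bound to beads. The 3 Rheb conditional knockout libraries (Rheb cKO) are titled Rheb floxp/floxp with Ribo-HA k/+ and Syn-Cre, and their genotype label reads Rheb knockdown. The 3 Control libraries carry the floxed Rheb alleles and Ribo-HA k/+ with no Cre in the title. Syn-Cre is a name used for Cre recombinase driven by the neuronal synapsin promoter, so Rheb, the small GTPase that switches on the kinase complex mTORC1, is to be removed from neurons. The labels give neuron as the cell type, and do not say whether the ribosomes of Control animals carried the tag without Cre or whether each library is a separate animal. The groups therefore differ in Cre as well as in Rheb, and each fold compares the precipitates as labelled. Each gene has 1 FPKM value per group (fragments counted per unit of gene length and of sequencing depth). The authors gave no value per library in these tables, so SDs and depths cannot be given. The only measure of error is the q-value of the authors' Cuffdiff test, and a gene is called here at a q under 0.05. If the libraries of a group are technical repeats, that q covers only their spread. Rheb itself had 9.20 FPKM in Rheb cKO and 22.7 FPKM in Control in the authors' deposited table (log2 fold change -1.30, q = 0.00161).

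Rbm3 and Cirbp are small RNA-binding proteins whose mRNAs accumulate when mammalian cells are mildly cooled, and both are made in neurons. Rbm3 is known for protecting synapses in cooled mouse brain, and Cirbp for binding clock gene transcripts. Heat shock proteins act at the other end of the temperature range. When unfolded proteins build up, the transcription factor HSF1 binds heat shock elements, repeats of the short unit GAA in alternating orientation, and switches on HSP70, HSP40, HSP110 and HSP90 genes. Chaperones of the endoplasmic reticulum such as Hspa5 (also called BiP) answer instead to the unfolded protein response through an element of their own.

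Sequence upstream of the RefSeq starts (GRCm38.p6, 250 bases before the start, the farthest upstream of the RefSeq starts where a gene has several) was searched for these elements on both strands. Of the members, 6 had an entry (Cirbp, Hspa1a, Hspa1b, Hsph1, Dnajb1 and Hspa5). The stretches below carry the matches, which stand in capitals. Cirbp (chr10:80167589-80167688, plus strand) holds TCCCCGCC, described in mouse as a mild-cold response element of this gene and overlapping the GC-rich box bound by Sp1. Hspa1a (chr17:34972247-34972366, minus strand) and Hspa1b (chr17:34959329-34959448, minus strand) hold the heat shock pair GAANNTTC and, on the opposite strand, the same cold octamer. Hsph1 (chr5:149636351-149636380, minus strand) holds the heat shock pair in its other form, TTCNNGAA. Hspa5 (chr2:34772020-34772049, plus strand) holds the endoplasmic reticulum stress element, which is CCAAT, then 9 bases, then CCACG.
Cirbp: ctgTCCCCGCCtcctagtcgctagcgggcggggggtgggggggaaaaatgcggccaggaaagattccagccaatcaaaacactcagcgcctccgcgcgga
Hspa1a: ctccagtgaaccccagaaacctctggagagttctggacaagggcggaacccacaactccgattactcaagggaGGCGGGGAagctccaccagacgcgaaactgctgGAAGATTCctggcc
Hspa1b: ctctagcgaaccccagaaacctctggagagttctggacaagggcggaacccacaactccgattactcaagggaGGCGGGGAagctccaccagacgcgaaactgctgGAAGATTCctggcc
Hsph1: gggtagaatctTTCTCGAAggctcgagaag
Hspa5: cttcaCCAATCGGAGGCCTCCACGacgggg

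The stress element of Hspa5 spans positions -65 to -47 from the start, and 0.122% of 27025 promoters of the same length hold it. The octamer of Cirbp spans positions -247 to -240, and 4.70% of promoters hold it. The pair GAANNTTC spans positions -104 to -97 of both Hspa1a and Hspa1b and occurs in 6.79% of promoters. The pair TTCNNGAA spans positions -33 to -26 of Hsph1 and occurs in 7.18%. A run of 3 alternating units (either pair extended by NN and 1 further unit), found in 0.403% of promoters, and the unfolded protein response octamer TGACGTGG, found in 0.496%, had 0 matches in the 6 promoters. No searched motif matched upstream of Dnajb1. The promoters of Hspa1a and Hspa1b differ at 3 of 250 positions, at -207, -204 and -2 from the start, an identity of 98.8%. The annotated exons of GENCODE M21 cover 26 of the 30 printed bases of Hsph1 and all 30 of Hspa5, since transcripts of these genes begin farther upstream there, and none of the printed bases of Cirbp, Hspa1a and Hspa1b. The GENCODE gene model of Cirbp likewise begins upstream of its printed stretch. These matches are letters in a window and were not tested for binding.

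**Figure D1:**
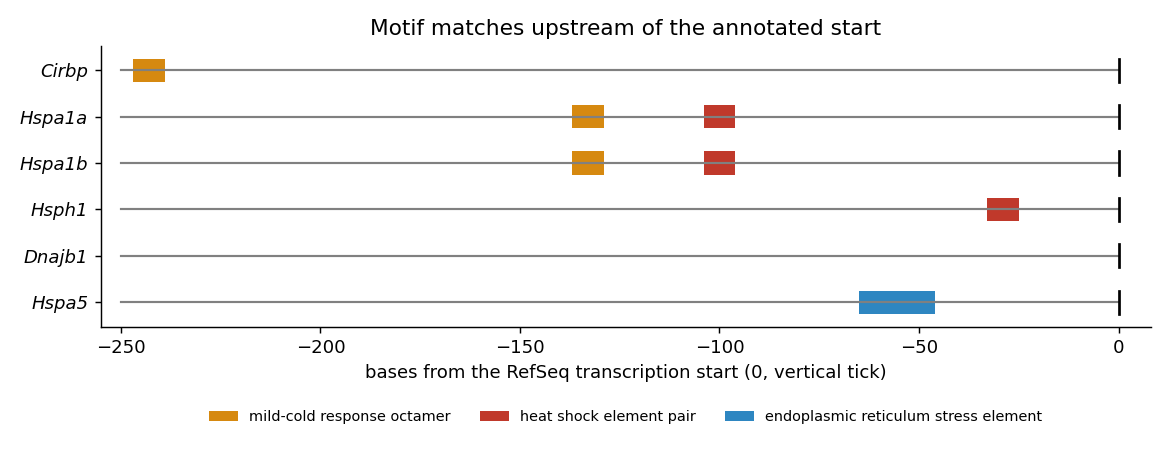
Position of motif matches in the 250 bases before the RefSeq start of the 6 members with an entry; the horizontal axis is the distance from the start in bases and coloured blocks are matches. Hspa1a and Hspa1b carry the same 2 blocks, and Dnajb1 carries none.

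Rbm3 and Cirbp were the members called higher in Rheb cKO, by about 2-fold or more each, in a table where 4.14% of genes were called higher. Rbm3 (chromosome X, 8138975 to 8145880, minus strand, mm10) had 68.9 FPKM in Rheb cKO and 25.5 FPKM in Control in the authors' deposited table. That is 270.4% of the Control level, or a log2 fold change of 1.44 (q = 0.00161). Cirbp (chromosome 10, 80165985 to 80172786, plus strand, mm10) had 206 FPKM in Rheb cKO and 98.0 FPKM in Control in the authors' deposited table. That is 209.8% of the Control level, or a log2 fold change of 1.07 (q = 0.00161). This q is the lowest the table holds and is shared by 410 genes, so it does not rank them. By fold, Rbm3 ranked 79 and Cirbp 187 from the top among 13175 genes with a finite fold. The sum of both was 274 FPKM in Rheb cKO and 123 FPKM in Control. Cirbp was the more abundant of the pair in each group, by 2.98 times in Rheb cKO and 3.84 times in Control.

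Both are short genes whose annotation includes transcripts that are not translated in full. GENCODE M21 lists 11 transcripts for Rbm3, of which 6 are protein coding, 2 retain an intron and 2 are marked for nonsense-mediated decay. It lists 7 for Cirbp, of which 2 are protein coding, 4 retain an intron and 1 is marked for nonsense-mediated decay. A gene-level FPKM covers all transcripts of a gene, so the part of each fold carried by coding mRNA was not measured. Rbm3 is overlapped on the opposite strand by the antisense gene Rbm3os. The library kit keeps strand per the labels, but the strand setting of the counting is not given in the sources used here, so reads of the overlapping genes cannot be told apart.

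**Figure D2:**
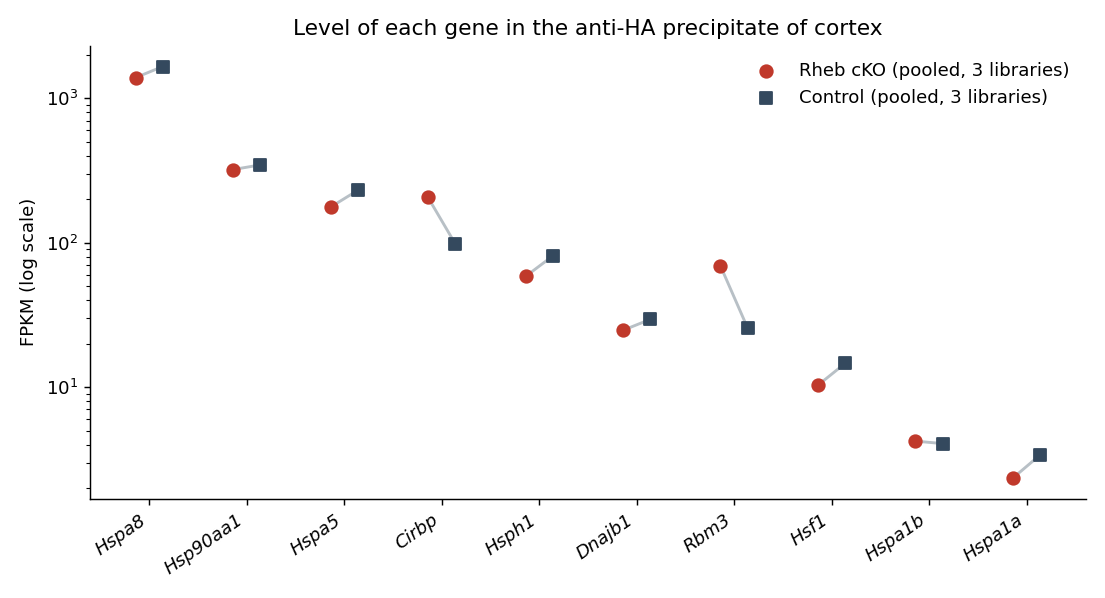
FPKM on a log axis for each gene in Rheb cKO (red circles) and Control (dark squares), 1 pooled value per group and no error bars, ordered by the Control level. Rbm3 and Cirbp are the genes called higher, at 68.9 and 206 FPKM in Rheb cKO.

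Of the 7 chaperone genes and Hsf1, 3 of 8 were called lower and 0 higher. Their median log2 fold change was -0.32, with 7 folds below 0 and that of Hspa1b above it. Over all tested genes 4.58% were called lower and 4.14% higher, and the median fold was 0.03. As the members were picked with this comparison known, nothing is read from their share. Summed over the 7 chaperone genes, the level was 1974 FPKM in Rheb cKO and 2350 FPKM in Control, or 84.0% of Control.

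Hsf1, the master regulator of the heat shock response (chromosome 15, 76477422 to 76501913, plus strand, mm10), had 10.3 FPKM in Rheb cKO and 14.6 FPKM in Control in the authors' deposited table. Its log2 fold change was -0.51 (q = 0.0177). Hsph1, an HSP110 that restarts the cycle of HSP70 by exchanging its nucleotide (chromosome 5, 149614287 to 149636376, minus strand, mm10), had 58.3 FPKM in Rheb cKO and 80.9 FPKM in Control in the authors' deposited table. Its log2 fold change was -0.47 (q = 0.00406). Hspa5, the HSP70 of the endoplasmic reticulum (chromosome 2, 34771970 to 34777547, plus strand, mm10), had 176 FPKM in Rheb cKO and 230.3 FPKM in Control in the authors' deposited table. Its log2 fold change was -0.39 (q = 0.0149). These 3 were the members called lower, and none of them went below 70% of the Control level.

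The remaining chaperones were not called. Hspa8, the constitutive HSP70 that also uncoats clathrin vesicles at synapses, was the most abundant member, with 1387 FPKM in Rheb cKO and 1657 FPKM in Control in the authors' deposited table. Its log2 fold change was -0.26 (q = 0.239). Dnajb1, the J-domain partner that hands substrates to HSP70, had 24.7 FPKM in Rheb cKO and 29.4 FPKM in Control in the authors' deposited table (log2 fold change -0.25, q = 0.269). The levels of Hsp90aa1, the stress-inducible cytosolic HSP90, were 320.6 FPKM in Rheb cKO and 345 FPKM in Control in the authors' deposited table (log2 fold change -0.11, q = 0.710). A q above the threshold does not show that the groups are alike, and the table gives no interval for these differences.

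Hspa1a and Hspa1b, the strongly heat-inducible HSP70 genes, were the least abundant members. Hspa1a had 2.35 FPKM in Rheb cKO and 3.40 FPKM in Control in the authors' deposited table (log2 fold change -0.53, q = 0.111). Hspa1b had 4.23 FPKM in Rheb cKO and 4.06 FPKM in Control in the authors' deposited table (log2 fold change 0.06, q = 0.933). On this scale Hspa1a had the lowest fold of the set. On the log2(FPKM + 1) scale it stood at -0.39, above Hsf1 and Hsph1 (both -0.47), and after subtracting the trend on length and GC at -0.48, above Hsph1 (-0.50). The sum of both, which depends less on how reads were split between them, was 6.57 FPKM in Rheb cKO and 7.46 FPKM in Control, a log2 ratio of -0.18. Hspa8 exceeded that sum by 211 times in Rheb cKO and 222 times in Control.

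Several members share sequence with other genes, so their values depend on how the authors' counting assigned shared reads. Stretches of 50 bases from the longest coding transcript of each member were looked up, on both strands, in the GENCODE M21 transcripts of all other genes. For Hspa1a 66.3% of stretches and for Hspa1b 62.3% occurred elsewhere, most of them in each other. For Hspa8 the share was 74.8%, led by Gm15459 and Gm26825, and for Hsp90aa1 it was 58.5%, led by Gm12346. Rbm3 shared 14.8%, mainly with Rbm3-ps, and Dnajb1 0.441%. Cirbp, Hsph1, Hspa5 and Hsf1 shared 0 stretches. The called members thus shared 0 (Cirbp, Hsph1, Hspa5 and Hsf1) or 14.8% (Rbm3) of their stretches. Those not called shared 0.441% (Dnajb1) or between 58.5% and 74.8% (Hsp90aa1, Hspa1b, Hspa1a and Hspa8). Whether shared sequence bears on which members were called was not tested.

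**Figure D3:**
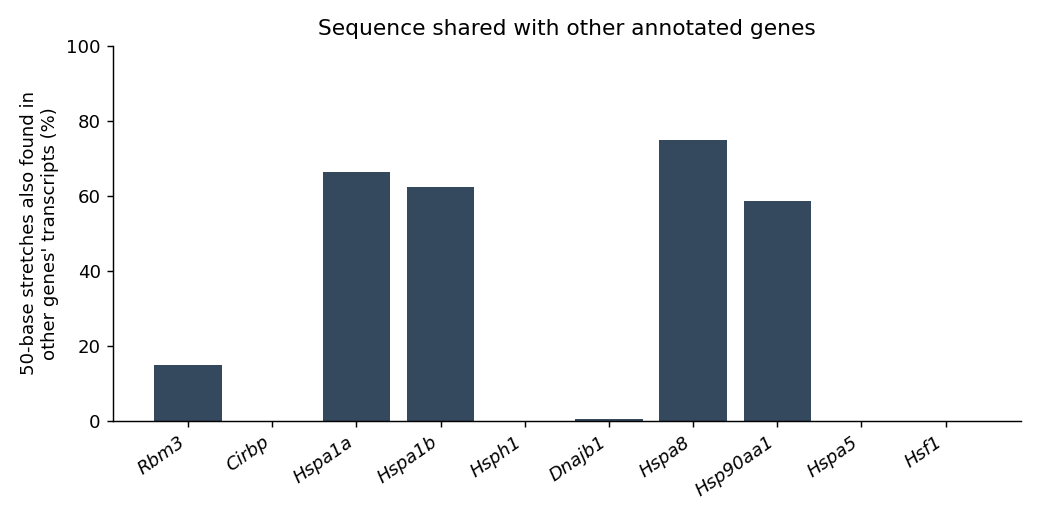
Percentage of 50-base stretches of each gene's longest coding transcript that also occur in transcripts of another annotated gene. Bars reach 74.8% for Hspa8 and 66.3% for Hspa1a, and are at 0 for Cirbp, Hsph1, Hspa5 and Hsf1.

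The order of levels within the set differed between the groups at 2 places. Rates per length can be compared between genes on the FPKM scale. For Hspa8, Hsp90aa1, Hspa1a, Hspa1b and, in smaller part, Rbm3, these rates depend on how shared reads were assigned. In Rheb cKO the order ran Hspa8, Hsp90aa1, Cirbp, Hspa5, Rbm3, Hsph1, Dnajb1, Hsf1, Hspa1b and Hspa1a. In Control it ran Hspa8, Hsp90aa1, Hspa5, Cirbp, Hsph1, Dnajb1, Rbm3, Hsf1, Hspa1b and Hspa1a. Cirbp thus stood at 1.17 times the level of Hspa5 in Rheb cKO and at 0.425 times in Control. Rbm3 stood at 1.18 times the level of Hsph1 in Rheb cKO and at 0.315 times in Control. With 1 pooled value per group, which neighbours in this order differ beyond their spread was not tested. Against all listed genes, Rbm3 lay above 88.1% in Rheb cKO and above 73.4% in Control, and Cirbp above 95.8% in Rheb cKO and 91.3% in Control.

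**Figure D4:**
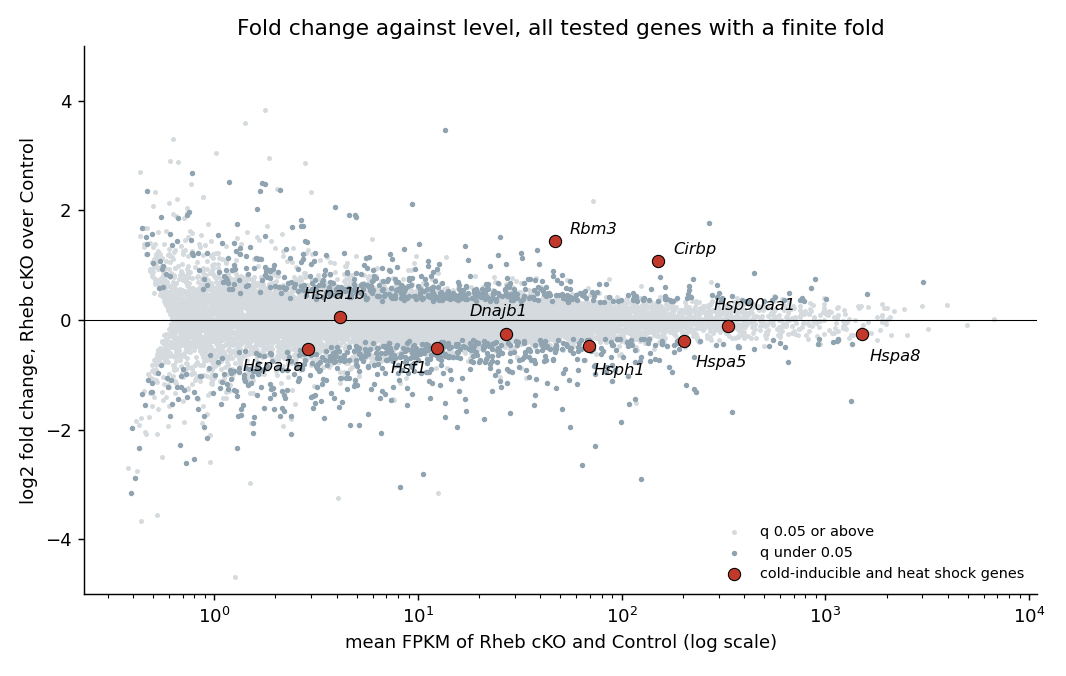
Log2 fold change of Rheb cKO over Control (vertical axis) against the mean FPKM of both groups (log horizontal axis) for 13175 genes; grey-blue points have a q under 0.05 and red points are the 10 members. Rbm3 (1.44) and Cirbp (1.07) lie above the bulk of genes of like level, and the others lie between -0.53 and 0.06.

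Across the wider chaperone families, folds centred near 0. Over 127 measured chaperone and co-chaperone genes that are not members, 9 fell and 3 rose, 7.09% and 2.36% beside 4.58% and 4.14% of all tested genes. Their median log2 fold change was -0.02, beside 0.03 over all tested genes. At an unadjusted p under 0.05 in the authors' Cuffdiff test, 1515 of all 13192 tested genes were higher and 1283 lower. These families were listed from textbook knowledge with earlier results of these data known, and a list gets no test of its own here.

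Among HSP40 genes, the J-domain partners of HSP70, 3 of 37 fell and 2 rose, with a median of 0.05. These shares of 8.11% and 5.41% stand beside 4.58% and 4.14% of all tested genes. Dnajb2 (57.0 FPKM in Rheb cKO and 84.0 FPKM in Control, log2 fold change -0.56, q = 0.00161), a neuronal co-chaperone, fell in the authors' deposited table. So did Dnajc21 (-0.60, q = 0.00785), which works in ribosome assembly, and Dnajb5 (-0.44, q = 0.00406). Dnajb14 (0.38, q = 0.0342), a J-domain protein of the endoplasmic reticulum membrane, rose in the authors' deposited table, as did Dnajc6, the neuronal partner of Hspa8 in clathrin uncoating (0.37, q = 0.0194). Dnajc6 was named after its value was seen. Hspa8 itself was not called.

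Of 24 co-chaperones of HSP90 and HSP70, 2 fell and 1 rose, with a median of -0.08. That is 8.33% and 4.17%, beside 4.58% and 4.14% of all tested genes. Fkbp5, a glucocorticoid-induced partner of HSP90, had 33.2 FPKM in Rheb cKO and 21.7 FPKM in Control in the authors' deposited table (log2 fold change 0.61, q = 0.00161). Chordc1 (-0.47, q = 0.0224), which is induced by HSF1, and Tomm34 (-0.49, q = 0.0265), which carries precursors to mitochondria, fell in the authors' deposited table. The other families held few calls. In the HSP110 family and its fellow nucleotide exchange factors the called gene of 14 was Hsph1, and in the HSP70 family that of 10 was Hspa5. The 6 HSP70 genes outside the set all had a fold above 0, with a median of 0.10. Of the 4 HSP90 genes 0 were called by Cuffdiff, also 0 at an unadjusted p under 0.05, and Hsp90ab1, the constitutive form, had 1067 FPKM in Rheb cKO and 974.7 FPKM in Control in the authors' deposited table (log2 fold change 0.13, q = 0.618). Of the 16 chaperonins and prefoldins, the folding cages and their loaders, 0 were called by Cuffdiff and 0 had an unadjusted p under 0.05. Their median was 0.08, and the most abundant were Pfdn5 (0.12, q = 0.717) and Pfdn6 (-0.09, q = 0.808) in the authors' deposited table.

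Of 26 measured genes that HSF1 classically induces, 3 fell, 11.5% beside 4.58% of all tested genes, and 0 rose (0 higher at an unadjusted p under 0.05), with a median of -0.09. Folds below 0, called or not, made up 18 of the 26, beside 5982 of 13175 over all genes. Without the members the list held 20 genes, of which 2, Chordc1 and Cryab, fell, 13 had a fold below 0, and the median was -0.07. Cryab, a small heat shock protein, had the lowest fold of the list, with 49.8 FPKM in Rheb cKO and 98.5 FPKM in Control in the authors' deposited table (log2 fold change -0.98, q = 0.00161). It was the only called gene of 7 small heat shock proteins. Oligodendrocytes and astrocytes are known to express Cryab, and oligodendrocyte markers moved in the same direction: 12 of 12 fell, with summed levels of 1343 FPKM in Rheb cKO and 3769 FPKM in Control. Their part in the level of Cryab was not tested. Among heat shock factors and their regulators, 2 of 9 fell, Hsf1 and Hsf4. Hsf4, a relative of Hsf1 known from the lens, had 5.86 FPKM in Rheb cKO and 9.36 FPKM in Control in the authors' deposited table (log2 fold change -0.67, q = 0.0218). None of the other 7 was called by Cuffdiff (1 higher at an unadjusted p under 0.05), and 5 of them had a fold above 0, the highest 0.30.

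Among chaperones and stress sensors of the endoplasmic reticulum, 4 of 27 measured fell, 14.8% beside 4.58% of all tested genes, and 0 rose. The median was -0.14. With an unadjusted Cuffdiff p under 0.05, 6 were lower and 0 higher, beside 1283 lower and 1515 higher of all 13192 tested genes. Folds below 0, called or not, made up 22 of the 27, beside 5982 of 13175 over all genes. Without Hspa5, 3 of 26 fell, 11.5% beside 4.58% of all tested genes, and the median was -0.13. Sdf2l1, a partner of Hspa5 in the endoplasmic reticulum, had 18.2 FPKM in Rheb cKO and 30.8 FPKM in Control in the authors' deposited table (log2 fold change -0.76, q = 0.00161). The membrane-bound transcription factor Atf6b (-0.42, q = 0.0189) and the disulfide isomerase Pdia4 (-0.40, q = 0.0313) fell as well in the authors' deposited table. The stress element printed above for Hspa5 stands in 8 of the 23 promoters of this list that had an entry. Of the 13 tested genes with that element, 9 had a fold below 0, 1 (Hspa5) fell and 0 rose, with a median of -0.08. The 8 genes of the list with the element ranged from Hspa5 (-0.39, q = 0.0149) to Canx (0.01, q = 0.979) in the authors' deposited table, with Creld2 (-0.33, q = 0.157), Pdia6 (-0.22, q = 0.319) and Calr (-0.02, q = 0.962) between them. Canx, Creld2, Pdia6 and Calr were named after their values were seen, and none of them was called.

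Relatives and regulators of the cold-inducible proteins are set here beside the 4.14% of all tested genes called higher and the 4.58% called lower. At an unadjusted Cuffdiff p under 0.05, 1515 of all 13192 tested genes were higher. Of 9 genes with a cold-shock domain or an RNA-binding domain of the Rbmx type, 0 rose (3 higher at an unadjusted p under 0.05) and 1 fell, with a median of 0.14. Carhsp1, a small cold-shock domain protein, had 17.2 FPKM in Rheb cKO and 29.0 FPKM in Control in the authors' deposited table (log2 fold change -0.75, q = 0.00161). Of 8 genes linked to temperature-dependent splicing or to Rbm3, 0 rose (0 at an unadjusted p under 0.05) and 1 fell. Clk1, a kinase of splicing factors whose family is more active at lower body temperature, had 4.75 FPKM in Rheb cKO and 8.66 FPKM in Control in the authors' deposited table (log2 fold change -0.87, q = 0.0183). The levels of Rtn3, whose translation Rbm3 is known to promote, were 436 FPKM in Rheb cKO and 398 FPKM in Control in the authors' deposited table (log2 fold change 0.13, q = 0.615), and Rtn3 was named after its value was seen. Across tested genes whose promoter holds the cold octamer, the median fold was 0.02, beside 0.03 over all tested genes with a promoter entry. With a heat shock pair it was 0.02 for GAANNTTC and 0.03 for TTCNNGAA.

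**Figure D5:**
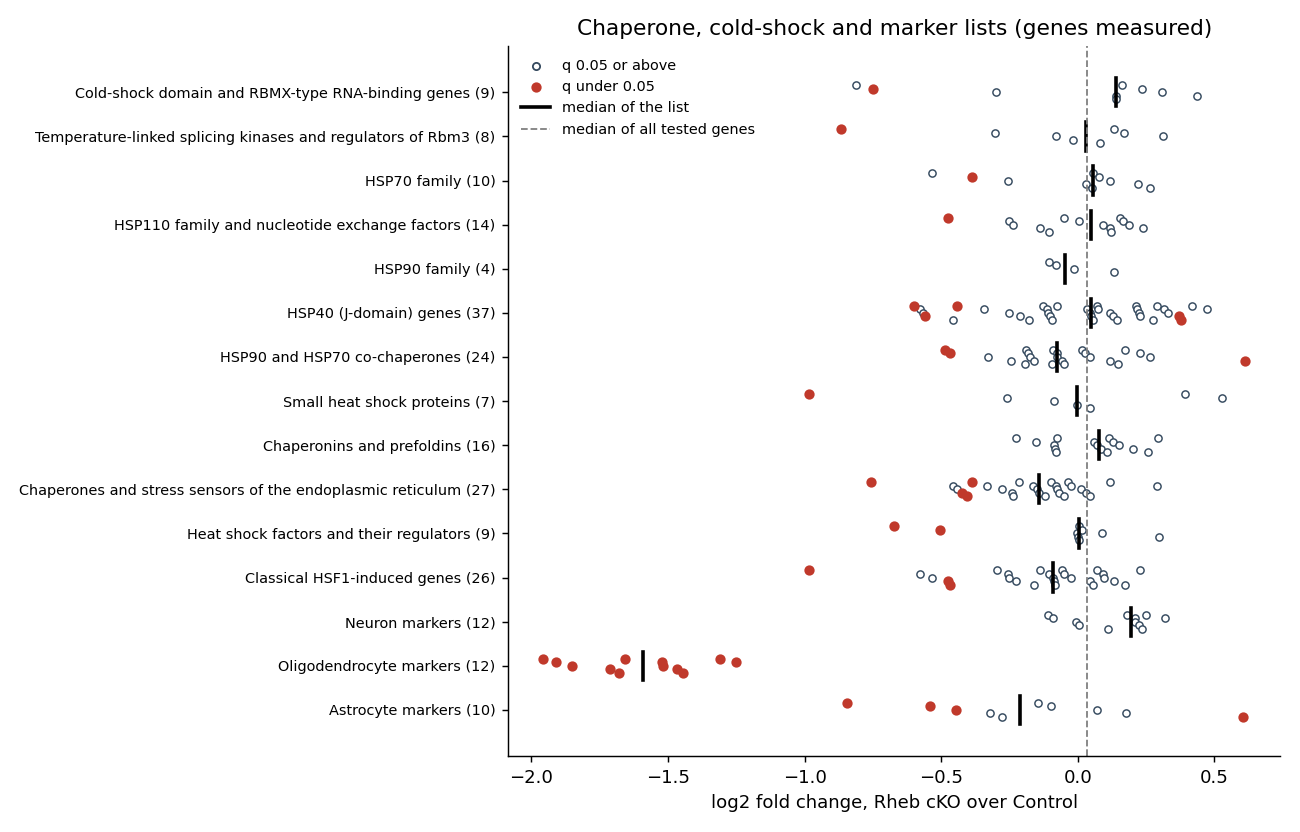
Log2 fold change of Rheb cKO over Control for each measured gene of the chaperone, cold-shock and marker lists; filled red points have a q under 0.05, black bars are list medians and the dashed line is the median of all tested genes (0.03). Chaperone medians lie between -0.14 and 0.08, whereas the oligodendrocyte markers lie at -1.59.

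Markers of cell types were read in the same precipitates, where 4.58% of all tested genes were called lower and 4.14% higher. Neuron markers, which the cell type label calls for, were present at high level, led by Nrgn and Snap25. Their sum over 12 genes was 9243 FPKM in Rheb cKO and 9201 FPKM in Control. Nrgn alone had 4827 FPKM in Rheb cKO and 5136 FPKM in Control, so it weighs heavily in these sums. In Control, Snap25 (986 FPKM) stood below the oligodendrocyte marker Mbp (1973 FPKM) and the astrocyte marker Aldoc (1554 FPKM) in the authors' deposited table. In Rheb cKO the levels were 981 FPKM for Snap25, 713 FPKM for Mbp and 1142 FPKM for Aldoc. Mbp was named after its value was seen. No input RNA is among the 6 libraries, so enrichment of neuron markers by the precipitation was not measured. None of the 12 neuron markers was called by Cuffdiff, 9 had a fold above 0, and the median was 0.19. At an unadjusted p under 0.05, 3 were higher, beside 1515 of all 13192 tested genes. Oligodendrocyte markers had a median of -1.59, with Mog (-1.96, q = 0.00161), Ermn (-1.91), Mal (-1.85) and Ugt8a (-1.71) lowest in the authors' deposited table. Of 10 astrocyte markers 3 (S100b, Aqp4 and Aldoc) fell and 1 (Gfap) rose, with sums of 1703 FPKM in Rheb cKO and 2106 FPKM in Control. Of 5 measured endothelial and mural markers 3 (Vtn, Acta2 and Rgs5) fell, with sums of 39.0 FPKM in Rheb cKO and 72.3 FPKM in Control. Pecam1, Flt1, Kdr, Tek and Slco1a4 of the same list were not measured. The endothelial marker Cldn5 was not called (log2 fold change -0.27, q = 0.648) and was named after its value was seen. The 8 microglia markers summed to 27.2 FPKM in Rheb cKO and 24.0 FPKM in Control and the 5 blood markers to 67.7 FPKM in Rheb cKO and 65.5 FPKM in Control, with 0 called in either list by Cuffdiff (1 microglia marker, C1qa, and 0 blood markers at an unadjusted p under 0.05). No measured marker was listed at 0 in either group. In RNA from such precipitates, fewer cells of a type, less RNA per cell and a changed yield of the precipitation cannot be told apart. The part of these cell types in the folds of the chaperones, Rbm3 and Cirbp was not tested.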

How the data were processed

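Per the labels' protocols, RNA came from an anti-HA immunoprecipitation of cortical lysate, was purified on columns and was made into libraries with a stranded mRNA kit; 6 libraries fall into 2 groups of 3. TopHat2 2.1.0, Cuffdiff 2.2.1 and mm10 are named in the submitters' processing notes, without settings. The authors deposited FPKM values pooled per group, and the longer table was used (13192 genes; 1 emptied line dropped). In the deposited log2 column, Control is the divisor and no pseudocount was added, since it lies within 1.23e-05 of the log2 ratio of the FPKM columns. The deposited test score was not used. The authors' p-values and q-values come from Cuffdiff, and a gene was called at a q under 0.05. Depth per library is unknown.

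No test was fitted here. Lists were described by counts and medians, and genes with 0 FPKM in a group (5 in Rheb cKO, 12 in Control) have no fold. Genes named are the members, Rheb and up to 4 called genes per list with the highest absolute fold and a mean FPKM of 1 or more (the 2 most abundant otherwise), plus genes said to be named later. Members and lists were chosen with earlier results of these data known. Gene models and printed gene coordinates came from GENCODE M21 (mm10) and promoters from RefSeq (GRCm38.p6). The authors' own loci of Rbm3 (chromosome X, 8138974 to 8147964), Hsph1 (chromosome 5, 149616844 to 149636315), Hsf1, Hspa8 and Dnajb1 have other bounds. The FPKM values belong to those loci. Python 3.11.15, numpy 2.4.6, pandas 2.3.3 and matplotlib 3.10.9 were used; the adjustment and trend code was tested on simulated data.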

Additional observations from a re-analysis of the deposited data

How the results depend on the processing

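No paired analysis was possible because the deposited values are pooled per group and carry no library number, and for the same reason no library could be left out. At a q under 0.01 the whole table held 621 called genes instead of 1150, and the members 3 (Rbm3, Cirbp and Hsph1) instead of 5. At that threshold the calls were 3 of the HSP40 genes, 1 co-chaperone, 1 gene of the endoplasmic reticulum list, 2 astrocyte markers, and 0 in the HSP70 family, the heat shock factor list and the list of splicing kinases and regulators of Rbm3. At a q under 0.1 there were 2 calls among cold-shock domain and Rbmx-type genes and 1 each among neuron and microglia markers. Leaving out genes whose mean FPKM is below 1 moved no count by over 1.5 times. Some lists were also counted, after the data were seen, without the 10 members, which left 0 calls in the HSP70 and HSP110 lists and 1 among heat shock factors, and without Cryab, which left 0 among small heat shock proteins. Adding 1 or 0.1 to each FPKM, subtracting the median fold, or removing the trend on transcript length and GC kept the sign of all 10 member folds. The widest shift was that of Hspa1a, which stood at -0.39 on the log2(FPKM + 1) scale. On that scale the oligodendrocyte median was -1.45, and the other list medians moved by under 0.1. Pooled values with unknown depth limit every statement to the authors' q.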
